A study of Mus musculus with 2 samples.

Results

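The extracellular matrix genes brevican (Bcan), neurocan (Ncan), versican (Vcan) and tenascin-C (Tnc) and the receptor gene Ptprz1 were compared between the cerebral cortex of Pax6-/- and wild type mouse embryos. The 5 genes were chosen by name, with earlier results of the same arrays known, and every probe set annotated with 1 of these symbols alone was taken. They are 5 of 8251 genes so annotated on the array, and 10 of its 12488 probe sets. Because the choice was made with the measured values in view, all values of the 5 genes are descriptions and none is a test.

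The Pax6-/- group was homozygous mutant cortex at embryonic stage E14.5 and the wild type group was cortex of the same stage, both on the NMRI strain, and each group was 1 array. The allele behind Pax6-/- is not named in the labels. RNA came from 3 embryos of each genotype according to the design text, which does not say whether it was pooled on the array. The study set out to find genes downstream of Pax6, a transcription factor of cortical radial glia. With 1 array per genotype no difference has a replicate check, no p-value can be given, and precision is limited by the small number of arrays.

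Lecticans are chondroitin sulfate proteoglycans. One end of the core protein binds the long sugar hyaluronan, helped by link proteins, and the other end carries a lectin domain that binds tenascins, so that these molecules together form a network around cells. Ptprz1 is a transmembrane tyrosine phosphatase that itself carries chondroitin sulfate chains, and its released ectodomain, phosphacan, is a matrix component of the brain. In developing cortex Ptprz1 and Tnc are known as products of radial glia, the neural stem cells, while Ncan is also made by young neurons.

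The median signal, in units of the Affymetrix MAS5 algorithm, was 283.7 on the Pax6-/- array and 237.3 on the wild type array. Ratios were taken as log2 of the signal plus a pseudocount of 81.5, Pax6-/- over wild type, centred on the median, and they understate differences of dim probe sets. A filter at the 40th percentile of the mean of both log2 values, which corresponds to a signal of about 166, left 5587 genes, each represented by its brightest probe set. The Pax6 probe set had a signal of 447 on the Pax6-/- array and 1169 on the wild type array, a log2 ratio of −1.29, and the sources do not say whether the allele removes the sequence it detects, so it is no firm check of the labels. Telencephalic markers were read from 3 genes of cortical neurons, which summed to 4376 in Pax6-/- and 8986 in wild type cortex. Tbr1, Neurod2 and Neurod6 had log2 ratios of −1.10, −0.98 and −0.94, with a median of −0.98. A technical spread was taken from the difference in log2 ratio between a gene's brightest and next brightest probe sets, both above the filter. It is the SD of that difference scaled down to a single ratio, so a difference between ratios varies more. Over 298 genes in each of 3 signal classes the technical spread was 0.72 from the filter to a signal of 471, 0.54 up to 828 and 0.38 above that. It does not include variation between embryos.

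Bcan stood lowest among the 5 genes and was the only one past 2-fold on this scale, 3.36-fold lower in Pax6-/- cortex. Ptprz1 followed at 1.83-fold lower and the brightest Ncan probe set at 1.42-fold lower. Ncan, Tnc and Vcan each differed by less than 1 technical spread. All 5 brightest probe sets were lower in the mutant, where 51.6% of all 5587 genes were lower. Of the 5 genes, 1 was at least 2-fold lower, against 5.48% of all genes, and 0 were at least 2-fold higher, against 5.05%. After loess scaling those shares of all genes were 6.52% lower and 3.76% higher. The median log2 ratio was −0.51 for the 5 genes and −0.02 for all genes. These shares are set side by side only, since the genes were picked from the same arrays. In RNA from whole tissue, fewer cells of a type and less RNA per cell cannot be told apart.

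**Figure D1:**
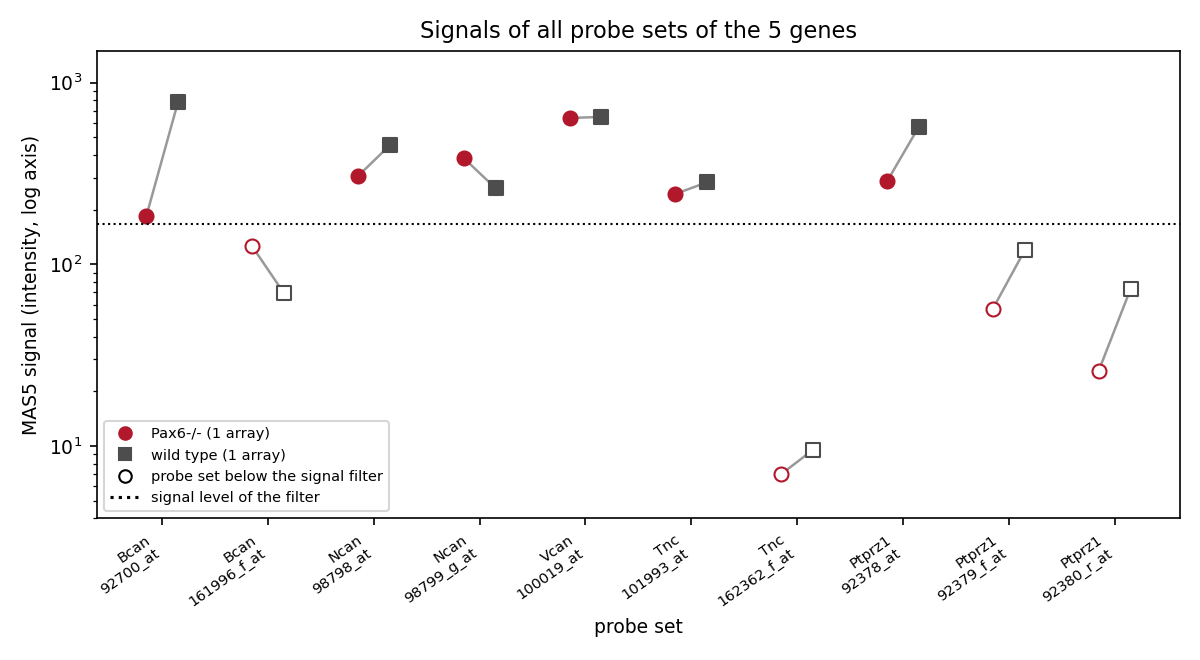
MAS5 signal (log axis) of each of the 10 probe sets on the Pax6-/- array (red circles) and the wild type array (grey squares), joined by a line, with open symbols for the 4 probe sets below the signal filter and a dotted line at the signal level of the filter. The brightest Bcan probe set runs between 184 in Pax6-/- and 782 in wild type cortex, and the second Bcan and second Ncan probe sets slope the other way.

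Bcan encodes the smallest lectican, which is brain-specific. Its brighter probe set, 92700_at, had a signal of 184 on the Pax6-/- array and 782 on the wild type array. The mutant signal lay at the 39.5th percentile of its array and the wild type signal at the 79.0th percentile of its own. The log2 ratio was −1.75, or −2.42 technical spreads, and without a pseudocount or centring wild type exceeded the mutant 4.26-fold. Of all 5587 genes, 36 were as low or lower, and of the 559 genes in the same decile of mean signal, 7 were. In that decile 4.83% of genes were at least 2-fold lower.

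The second Bcan probe set did not show this difference. Probe set 161996_f_at, whose suffix marks probes shared with related sequences, had a signal of 126 in Pax6-/- and 69.6 in wild type cortex, a log2 ratio of 0.41. Both signals were below the filter, and after loess scaling the log2 ratio of this probe set was 0.27. The probe sets thus lay 2.16 log2 units apart, a gap reached by 65 of the 2073 genes with several probe sets, whose median gap was 0.62. Averaged over both probe sets with no filter, a calculation chosen after seeing the data, Bcan had a log2 ratio of −0.72, short of 2-fold. Among the 74 genes with a second probe set whose brightest was at least 2-fold lower, the second was higher in the mutant in 42 and also at least 2-fold lower in 8.

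Ptprz1 was lower in the mutant by every one of its probe sets. The brightest, 92378_at, had a signal of 287 on the Pax6-/- array and 572 on the wild type array, a log2 ratio of −0.87. Probe set 92379_f_at, whose suffix also marks shared probes, read 57.1 in Pax6-/- and 119 in wild type cortex, with a log2 ratio of −0.58. Probe set 92380_r_at, designed under relaxed rules for probe choice, read 26.0 in Pax6-/- and 73.1 in wild type cortex, with a log2 ratio of −0.57. The dimmer 2 lay below the filter, and their plain ratios of wild type over mutant, 2.09 and 2.81, were above that of the brightest, 1.996. The brightest lay at −1.21 technical spreads. In its signal decile, 36 of 559 genes were as low or lower. With no pseudocount its log2 ratio was −1.05, past 2-fold.

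Ncan, a lectican of the nervous system, had 2 probe sets above the filter that disagreed. Probe set 98798_at had a signal of 306 in Pax6-/- and 452 in wild type cortex, a log2 ratio of −0.51. Probe set 98799_g_at, whose suffix marks probes shared within a group, had a signal of 385 in Pax6-/- and 263 in wild type cortex. Its log2 ratio was 0.39. The signs are opposite and each ratio is within 1 technical spread, so no direction is given for Ncan. Opposite signs were common on these arrays, in 410 of the 894 genes for which several probe sets passed the filter. The mean of both Ncan probe sets was a log2 ratio of −0.06.

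Tnc, a large glycoprotein with several arms that the lecticans bind, was measured near the filter. Probe set 101993_at had a signal of 244 in Pax6-/- and 283 in wild type cortex, a log2 ratio of −0.21, which is −0.29 technical spreads. The genes in its signal decile had a median log2 ratio of 0.21, and 178 of 559 were as low or lower than Tnc. Probe set 162362_f_at was dim, at 7.002 in Pax6-/- and 9.53 in wild type cortex, with a log2 ratio of −0.09.

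Vcan, the lectican of widest tissue distribution, was almost equal on both arrays. Its only probe set, 100019_at, had a signal of 640 in Pax6-/- and 648 in wild type cortex, a log2 ratio of −0.06 where the technical spread is 0.54. Its difference from Bcan on the log2 scale was thus 1.69 between the brightest probe sets. Without centring Vcan stood at −0.02. In its signal decile 240 of 558 genes were as low or lower.

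**Figure D2:**
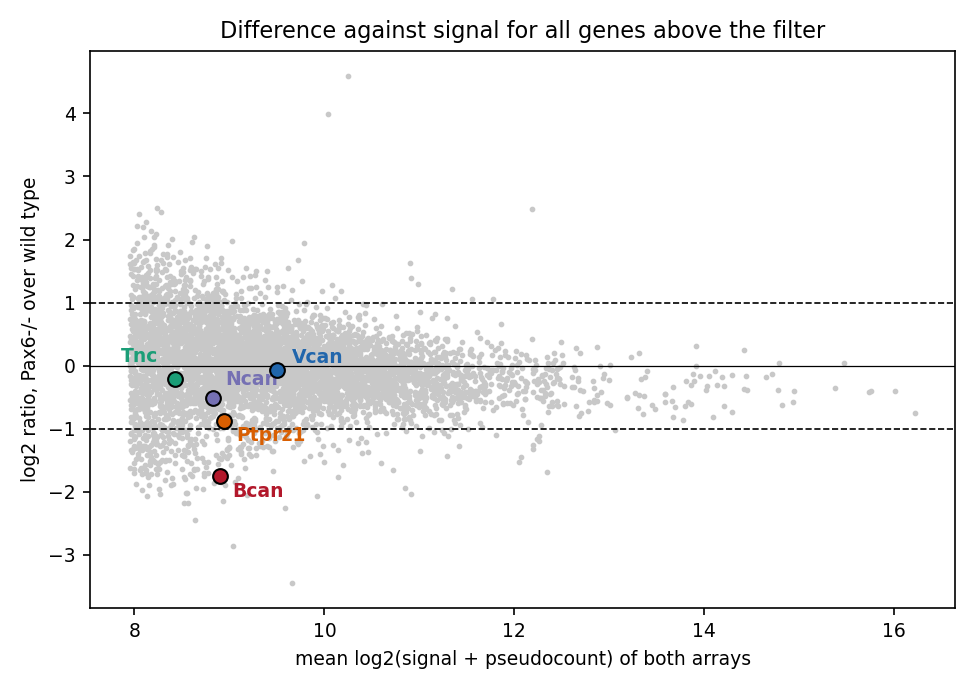
Log2 ratio, Pax6-/- over wild type, against the mean log2 signal of both arrays for the 5587 genes above the filter (grey points), with the 5 genes in colour, a solid line at zero and dashed lines at 2-fold. Bcan, at −1.75, lies below the lower dashed line, Ptprz1 just above it at −0.87, and Tnc and Vcan near zero.

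In order of ratio the genes ran Bcan, Ptprz1, Ncan, Tnc and Vcan. The step between Bcan and Ptprz1 was 0.88 on the log2 scale, and those that followed were 0.37, 0.30 and 0.15. Only the first step exceeds 0.72, which is the technical spread of a single ratio. A step is a difference between ratios and varies more than that, so no neighbours are taken as ordered beyond technical spread.

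**Figure D3:**
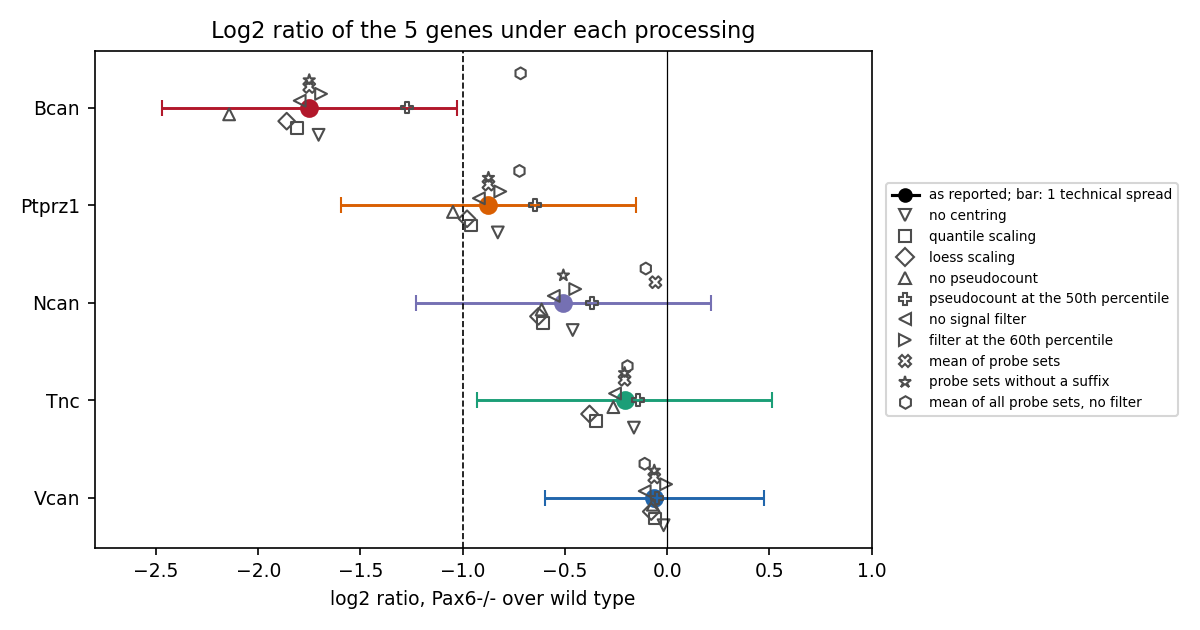
Log2 ratio, Pax6-/- over wild type, of the 5 genes as reported (coloured points, bars of 1 technical spread) and under 10 other processings (open symbols, of which the average over all probe sets with no filter was added after seeing the data), with a dashed line at 2-fold lower. Bcan lies past 2-fold in all but that average, at −0.72, the only processing that used its second probe set. Ptprz1 passes 2-fold without a pseudocount.

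The promoters of Bcan and Ptprz1, with the largest differences, and of Vcan, with the smallest, are shown from RefSeq on GRCm38.p6, 250 bases before to 50 after the annotated start, 5′ to 3′. They lie at chr3:88000307-88000606 on the minus strand for Bcan, chr6:22875252-22875551 on the plus strand for Ptprz1 and chr13:89742463-89742762 on the minus strand for Vcan. Capitals mark TAAT, the core that many homeodomain proteins bind, CCAAT and GGGCGG, each on either strand, and none of these matches overlap.
Bcan: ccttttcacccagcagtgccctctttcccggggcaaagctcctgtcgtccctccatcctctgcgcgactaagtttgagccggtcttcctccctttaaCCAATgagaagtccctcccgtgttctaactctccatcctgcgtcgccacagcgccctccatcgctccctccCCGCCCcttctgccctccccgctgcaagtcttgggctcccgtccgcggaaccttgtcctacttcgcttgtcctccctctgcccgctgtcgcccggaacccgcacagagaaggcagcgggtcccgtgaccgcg
Ptprz1: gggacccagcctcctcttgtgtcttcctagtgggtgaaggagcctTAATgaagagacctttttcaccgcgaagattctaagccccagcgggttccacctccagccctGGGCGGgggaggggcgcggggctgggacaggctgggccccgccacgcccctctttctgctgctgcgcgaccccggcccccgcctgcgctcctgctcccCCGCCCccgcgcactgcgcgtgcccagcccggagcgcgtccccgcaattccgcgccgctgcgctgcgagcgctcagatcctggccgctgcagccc
Vcan: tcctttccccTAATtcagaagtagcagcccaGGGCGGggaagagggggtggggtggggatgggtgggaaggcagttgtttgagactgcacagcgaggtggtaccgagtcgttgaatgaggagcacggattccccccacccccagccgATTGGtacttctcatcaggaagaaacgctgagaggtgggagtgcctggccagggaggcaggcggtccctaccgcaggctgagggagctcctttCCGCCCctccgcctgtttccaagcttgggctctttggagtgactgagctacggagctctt
The Bcan window held TAAT 0 times, while Ptprz1 and Vcan held it once each, and 58.0% of the 32851 promoters of that length held it. CCAAT was in Bcan and Vcan and in 37.4% of all. GGGCGG was in each of the 3 windows and in 35.7% of all. The G and C content was 64.0% for Bcan, 71.7% for Ptprz1 and 61.0% for Vcan, against a median of 52.7%. A match is a description of letters, and the arrays do not measure binding.

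Around these genes the pathway was thinly covered and mixed. Of 8 lecticans and link proteins, 5 were measured and 3 passed the filter, namely Bcan, Ncan and Vcan. Aggrecan (Acan), the lectican of cartilage, had a signal of 89.0 in Pax6-/- and 27.6 in wild type cortex. The link protein gene Hapln1 had a signal of 41.1 in Pax6-/- and 11.1 in wild type cortex. Both were below the filter, and their log2 ratios were 0.60 and 0.36. The 25th percentile of all signals was 90.2 on the Pax6-/- array and 71.3 on the wild type array. Dim signals thus ran higher on the Pax6-/- array as a whole, which bears on such ratios. Of the tenascins, Tnxb, a tenascin of connective tissue, had a signal of 119 in Pax6-/- and 376 in wild type cortex, a log2 ratio of −1.24. It passed the filter only through its wild type signal, with the Pax6-/- signal below the filter level of about 166. Its other probe set, below the filter, was at 0.34. Tnr, the tenascin of later brain, had no probe set naming 1 gene and was not used here.

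Among ligands and membrane partners of Ptprz1, 8 of 10 genes were measured and 5 passed the filter, 4 lower and 1 higher, with a median log2 ratio of −0.45. The growth factor midkine (Mdk) had a signal of 3548 in Pax6-/- and 4722 in wild type cortex, a log2 ratio of −0.45. Its relative pleiotrophin (Ptn) was below the filter, at 67.6 in Pax6-/- and 85.7 in wild type cortex. Contactin (Cntn1), an axonal partner, was also below it, at 84.4 in Pax6-/- and 88.0 in wild type cortex. The adhesion molecule genes past 2-fold were L1cam, at 98.2 in Pax6-/- and 710 in wild type cortex, and Nrcam, at 245 in Pax6-/- and 552 in wild type cortex. These make 2 of 5 at least 2-fold lower, against 5.48% of all genes, with Nrcam barely at the threshold at a log2 ratio of −1.0007. The Pax6-/- signal of L1cam was below the filter level of about 166. It passed the filter only through its wild type signal, so its place in this count depends on the difference itself. Tnc, at −0.21, is itself 1 of these 5. Chl1, an L1 relative, had a signal of 46.7 in Pax6-/- and 386 in wild type cortex and a log2 ratio of −1.91, with its mean log2 value below the filter. Ncam1 was the member on the higher side, at 5504 in Pax6-/- and 5202 in wild type cortex, with a log2 ratio of 0.03.

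Receptor-type tyrosine phosphatases lay on both sides. Of 17 measured, 13 passed the filter, 6 lower and 7 higher, none of these 13 past 2-fold, with a median of 0.01. Ptprz1 and Ptprs, which also binds chondroitin sulfate, were the lowest. Ptprs had a signal of 3288 in Pax6-/- and 5983 in wild type cortex, a log2 ratio of −0.89, where the technical spread is 0.38. Ptpro stood highest, at 806 in Pax6-/- and 436 in wild type cortex, with a log2 ratio of 0.73.

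The enzymes that build and sulfate chondroitin chains were measured for 7 of 23 genes, of which 5 passed the filter, 2 lower and 3 higher, with a median of 0.29. With no filter the median was 0.01. Chpf, which extends the chondroitin chain, had a signal of 163 in Pax6-/- and 775 in wild type cortex, a log2 ratio of −1.86 from 1 probe set. Next in size were B3galt6 at 0.39 and B3gat3 at 0.32, both enzymes of the linker between core protein and chain. Chpf was thus the 1 enzyme of 5 at least 2-fold lower, against 5.48% of all genes. Its Pax6-/- signal was just below the filter level of about 166, so it passed only through its wild type signal.

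Other proteoglycan core proteins numbered 11 above the filter, 6 lower and 5 higher, with a median log2 ratio of −0.01. App, whose protein has a form carrying chondroitin sulfate, had a signal of 2444 in Pax6-/- and 7016 in wild type cortex, a log2 ratio of −1.54 at a level where the technical spread is 0.38. The heparan sulfate proteoglycan genes Sdc3 and Gpc4 followed at −0.81 and −0.74. App was the 1 gene of these 11 at least 2-fold lower, against 5.48% of all genes.

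Hyaluronan genes, integrin subunits and matrix proteases had few members above the filter. The hyaluronan synthase gene Has1 had a log2 ratio of 0.45 and the hyaluronidase gene Hyal2 one of −0.10, and they were the 2 of 6 measured genes above the filter. Cd44, a hyaluronan receptor gene, had 3 probe sets, all below the filter. Of 4 integrin subunits, Itga7 was past 2-fold at 1.17, although its other probe sets were at 0.38 and 0.28, and Itgb5 and Itgb1 were at 0.78 and −0.48. That is 1 of 4 at least 2-fold higher, against 5.05% of all genes. Itgav was at −0.14 by its brightest probe set and at −1.51 by another above the filter. Of 4 proteases and inhibitors, Timp2, Timp3 and Mmp14 were at −0.49, 0.35 and −0.25.

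**Figure D4:**
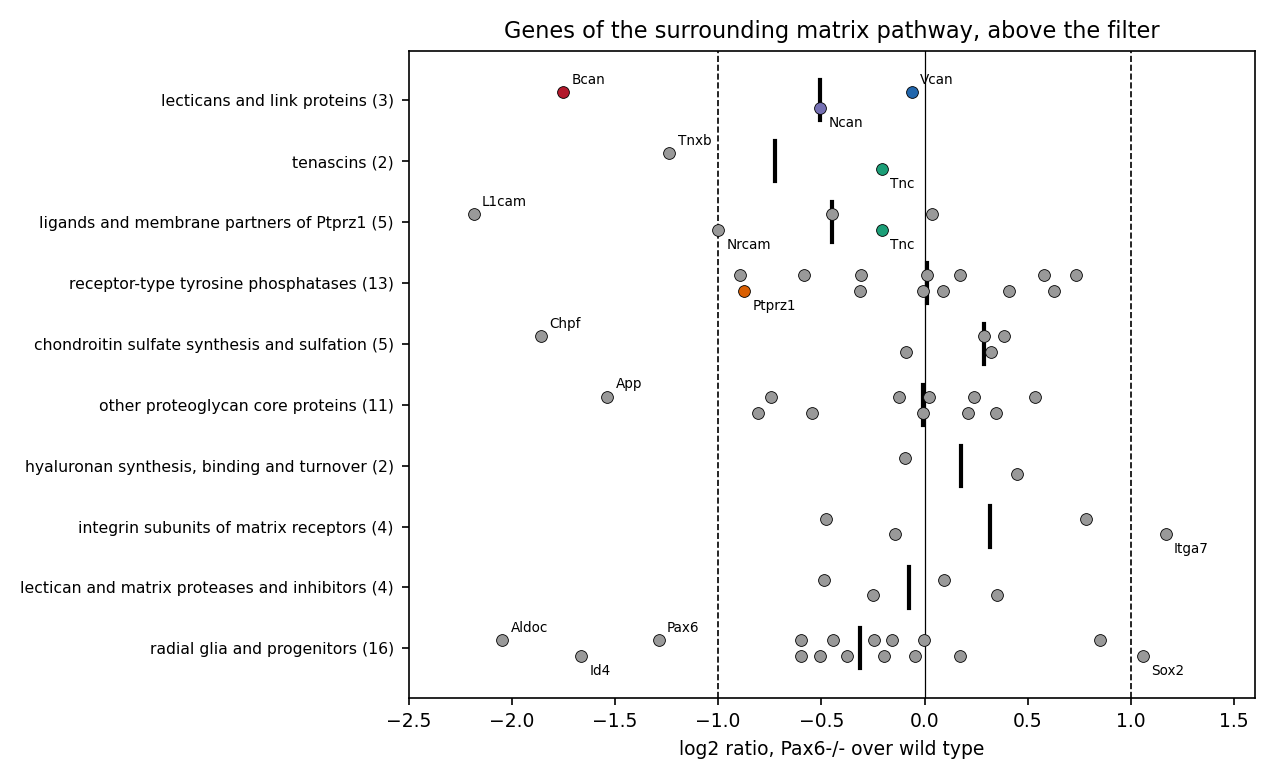
Log2 ratio, Pax6-/- over wild type, of each gene above the filter in 10 lists around lecticans and Ptprz1, with the number of genes in brackets, list medians as black bars, coloured points for the 5 genes and dashed lines at 2-fold. Genes past 2-fold are named, among them Chpf at −1.86, App at −1.54 and L1cam at −2.18, and Itga7 and Sox2 on the higher side.

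Markers of the cells that make these proteins were read beside them. Radial glia and progenitor genes numbered 16 above the filter, of which 13 were lower and 3 higher, where 51.6% of all genes were lower. At least 2-fold lower were 3 of the 16, against 5.48% of all genes, and at least 2-fold higher was 1, against 5.05%. Pax6, the mutated gene itself, is among the 13 and among the 3, at −1.29. The median log2 ratio was −0.31, and it lay between −0.38 and −0.11 under the other processings. The smallest difference among the 13 was −0.0020. For some of the 16 genes another probe set above the filter had the opposite sign. The summed signal over 18 measured genes of the list was 32534 in Pax6-/- and 38821 in wild type cortex. Aldoc, a glycolytic enzyme of astroglia, was at −2.05, Id4, an inhibitor of bHLH factors, at −1.66 and the progenitor factor Sox2 at 1.06. The only Sox2 probe set was designed under relaxed rules for probe choice. The filament genes Nes and Vim were at 0.17 and −0.60, and Fabp7, a lipid-binding protein of radial glia, at −0.44. Aldoc was the only gene of the list above the filter with a lower ratio than Bcan.

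Of 8 postmitotic neuron genes above the filter, 7 were lower, where 51.6% of all genes were lower. Their median was −0.64, and the signal summed over 11 measured genes was 25403 in Pax6-/- and 31637 in wild type cortex. Map2, Neurod6 and Gap43 were at −0.997, −0.94 and −0.93. After quantile and loess scaling the median was −0.41 in both. Oligodendrocyte precursors also make Bcan and Ptprz1 later in development. Their markers were measured for 5 of 10 genes, summed to 1259 in Pax6-/- and 1267 in wild type cortex, and had 3 genes above the filter, with Pdgfra at 0.72, Sox10 at −0.56 and Mbp at 0.09. The second Pdgfra probe set above the filter was at −1.08, and Olig1 and Olig2 had no probe set naming 1 gene.

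Astrocyte markers summed to 1844 in Pax6-/- and 1823 in wild type cortex over 8 genes. Gfap and Aqp4 were below the filter, and Slc1a2, Gja1 and Clu were at −0.71, 0.62 and −0.23. Meningeal and mesenchymal markers, from cells that can make Vcan and Tnc, summed to 6746 in Pax6-/- and 6745 in wild type cortex over 13 genes, with a median of 0.34 over 7 genes. That median was −0.0079 with no filter and 0.03 with a filter at the 60th percentile. Twist2 was at 1.52, Igf2 at −1.04 and Foxc2 at 0.90. Vascular markers summed to 2271 in Pax6-/- and 1885 in wild type cortex over 9 genes, with Cldn5, Eng and Flt1 at 1.06, −0.96 and 0.78. Microglial markers summed to 3621 in Pax6-/- and 2221 in wild type cortex over 8 genes, with Csf1r, Laptm5 and C1qb at 1.54, −1.36 and 1.14. The second probe sets above the filter were at 0.34 for Csf1r and −0.93 for C1qb, and averaging probe sets changed the microglial median of 0.50 to 0.10. Erythroid markers summed to 14308 in Pax6-/- and 16730 in wild type cortex over 7 genes, with Hbb-y, Klf1 and Slc4a1 at −0.63, 0.56 and 0.50. No marker had a signal of 0, but the lowest signal on either array was 1, so this is no check for dim markers. The part of any of these cell types in the values of the 5 genes was not tested.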

How the data were processed

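Biotin-labelled RNA from cerebral cortex was measured on 1 Affymetrix array per genotype. The deposited values are signal intensities on a linear scale, made by the authors with MAS5, per the submitters' processing notes. Not given in the sources used here are the MAS5 version, scaling target and any detection calls. Both arrays had a 2% trimmed mean of 500.2.

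Of 12488 probe sets, 66 are controls and were not used as genes. GEO's platform annotation gave 1 symbol for 10855, several for 396 and none for 1237. Probe sets with several symbols named no gene. Of those with 1 symbol outside the controls, 10817 matched GRCm38.p6 gene IDs, and the 5 genes all matched a RefSeq promoter.

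The pseudocount is the 25th percentile of all signals, and centring removed a shift of 0.05. The steps were run on simulated arrays in which all probe sets of a gene changed alike. That run checked the code and does not measure error on the real arrays. The genes and 18 lists were chosen with earlier results of these data known. Named are all probe sets of the 5 genes and all measured lecticans, link proteins, tenascins and Ptprz1 partners. Of other lists, only genes above the filter were named by size, those past 2-fold and those with the 3 largest ratios. Some genes beyond that were named after their values were seen, namely Nes, Vim, Fabp7, Itgav, Cd44, Gfap and Aqp4. Alternatives changed centring, scaling, pseudocount, filter, probe set choice and threshold. Over 2 arrays no likeness between gene patterns can be measured. Python 3.11.15, numpy 2.4.6, pandas 2.3.3, statsmodels 0.14.6 and matplotlib 3.10.9 were used.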

Additional observations from a re-analysis of the deposited data

How the results depend on the processing

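Under 9 other processings the Bcan log2 ratio lay between −2.14 and −1.27. The range was from −1.05 to −0.64 for Ptprz1, from −0.63 to −0.06 for Ncan and from −0.11 to −0.0049 for Vcan, and over the 8 that measured it from −0.38 to −0.14 for Tnc. Each kept its sign, and none moved by 1 technical spread. Of the separate probe sets, the dimmest of Ptprz1 moved by more, to −1.54 without a pseudocount. In the average over all probe sets with no filter, chosen after seeing the data, Bcan was at −0.72 and 0 of the 5 genes were past 2-fold. The number at least 2-fold lower was 2 without a pseudocount and 2 at a 1.5-fold threshold. Of all genes, 437 were at least 2-fold lower and 447 higher without a pseudocount. With the 50th-percentile pseudocount 128 were lower and 90 higher, with no signal filter 526 and 498, and with the 60th-percentile filter 114 and 97. At 1.5-fold 844 were lower and 785 higher, and at 3-fold 68 and 58. Loess scaling changed the shares past 2-fold to 6.52% lower and 3.76% higher. Of 189 recomputed list medians, 26 moved by more than their technical spread, and the cause was not tested. No paired analysis was possible because each genotype had 1 array, and for the same reason no array could be left out. Signal over background was not measured here. The technical spread was taken above the filter only, so the error of probe sets below the filter was not measured.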
